A study of Mus musculus with 28 samples.

Results

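Nsdhl and Ebp encode 2 enzymes of the late steps of cholesterol synthesis, and their transcripts were followed in mouse liver. They are 2 of the 4799 genes named on the arrays and hold 4 of 16416 spots, 2 spots for each gene, found by gene symbol in the probe annotation. The pair was chosen by low values in fasted livers relative to control livers in an earlier fit of these data. Ratios of fasted over control livers, and of fasted over high-fat livers, which use the same fasted mice, are therefore given as descriptions without a test. The ratios of high-fat over control livers did not choose the genes and are tested, although they share control mice with the comparison that did.

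All 15 mice were C57BL/6, an inbred laboratory strain, aged 12 to 16 weeks, with 5 mice in each of 3 groups. Fasted mice had 2 weeks of chow followed by 16 hours without food. High-fat mice received a fat-rich diet for 2 weeks, and control mice received chow over the same 2 weeks. Liver RNA was hybridised directly in 14 pairs of mice: 4 fasted against control, 5 fasted against high-fat and 5 high-fat against control. Each pair was run on 2 two-colour arrays as a dye swap, whose mean counts as 1 replicate, so 28 arrays were made. Every value is a log2 ratio of one liver over another, so no absolute level exists and the tissue label could not be checked through liver markers. The direction of the ratios was read from the labels and is likely but not certain. If the true direction were the opposite, lower would read as higher throughout.

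Nsdhl is the NAD(P)-dependent sterol dehydrogenase that acts with the methyl oxidase Msmo1 and the reductase Hsd17b7 to strip methyl groups from sterols made out of lanosterol. Ebp, the emopamil binding protein, is the isomerase that then shifts a double bond within the sterol ring system. The liver is a main site of cholesterol synthesis, and the genes of this route are known targets of the sterol-sensing SREBP transcription factors. Both genes are X-linked: mutations of Nsdhl underlie the bare patches and striated mouse mutants, and a mutation of Ebp underlies the tattered mutant.

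The promoter windows of both genes are printed here because their transcripts were low in the same livers. Each runs from 250 bases before to 50 bases after the gene's start, and was taken from RefSeq on GRCm38.p6. The Nsdhl window is chrX:72918271-72918570 on the plus strand and the Ebp window is chrX:8193463-8193762 on the minus strand, each written 5′ to 3′ along its gene. Capitals mark the CCAAT box bound by NF-Y (printed as ATTGG where it lies on the opposite strand) and the GGGCGG box bound by Sp1, and no marked motifs overlap.
Nsdhl: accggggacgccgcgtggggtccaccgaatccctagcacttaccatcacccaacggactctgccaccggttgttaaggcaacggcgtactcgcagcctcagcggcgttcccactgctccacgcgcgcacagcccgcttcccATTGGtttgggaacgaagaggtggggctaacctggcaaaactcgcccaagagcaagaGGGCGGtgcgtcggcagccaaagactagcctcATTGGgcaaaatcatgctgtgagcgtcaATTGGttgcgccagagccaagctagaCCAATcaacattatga
Ebp: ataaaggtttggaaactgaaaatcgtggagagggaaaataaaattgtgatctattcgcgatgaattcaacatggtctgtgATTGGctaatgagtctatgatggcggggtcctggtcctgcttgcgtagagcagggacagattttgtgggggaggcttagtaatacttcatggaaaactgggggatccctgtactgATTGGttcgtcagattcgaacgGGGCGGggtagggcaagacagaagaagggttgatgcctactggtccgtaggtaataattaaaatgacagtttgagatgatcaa

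Both strands were searched for TCACNCCAC (a sterol regulatory element), CCAAT (the NF-Y box), GGGCGG (the Sp1 box) and CACGTG (the E-box). The Nsdhl window held 4 CCAAT boxes, the first bases of which lie at -109, -20, 9 and 35 from the start. The Ebp window held 2 CCAAT boxes, at -170 and -55. At least 1 such box was present in 37.4% of all 32851 windows, at least 2 in 11.7% and at least 4 in 1.06%. Each gene had 1 GGGCGG box, at -52 for Nsdhl and -33 for Ebp, and 35.7% of all windows held one. Neither window held TCACNCCAC, which occurred in 1.24% of all windows, or CACGTG, which occurred in 7.15%. Among 19 windows of 16 listed cholesterol synthesis genes, both of these included, 15 held a CCAAT box, 16 a GGGCGG box and 1 TCACNCCAC. These matches describe letters in 300 bases and were not tied to binding.

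In fasted livers Nsdhl and Ebp were lower than in control livers in 4 of 4 pairs each. Nsdhl had log2 ratios of -2.18 for fasted 11 over control 4, -2.15 for fasted 15 over control 2, -2.44 for fasted 13 over control 5 and -1.45 for fasted 14 over control 3. The pair with control 3 was the least negative, and the other 3 lay close together. Their mean was -2.06 ± 0.43 (SD, n = 4). Ebp had log2 ratios of -0.80 for fasted 11 over control 4, -0.53 for fasted 15 over control 2, -1.01 for fasted 13 over control 5 and -0.73 for fasted 14 over control 3. For both genes the pair of fasted 13 was the lowest, but the highest pair differed between them. The mean for Ebp was -0.77 ± 0.20 (SD, n = 4). Within a pair the log2 ratio of Nsdhl was below that of Ebp in 4 of 4 pairs, by a mean difference of -1.29 ± 0.40 (SD).

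Fasted livers also had less of both transcripts than high-fat livers, in 5 of 5 pairs each. Nsdhl had log2 ratios of -1.40 for fasted 13 over high-fat 8, -0.41 for fasted 12 over high-fat 6, -1.41 for fasted 11 over high-fat 9, -0.26 for fasted 14 over high-fat 7 and -0.66 for fasted 15 over high-fat 10. The pairs of fasted 11 and fasted 13 stood well below the other 3. The mean was -0.83 ± 0.55 (SD, n = 5). Ebp had log2 ratios of -0.67 for fasted 13 over high-fat 8, -0.32 for fasted 12 over high-fat 6, -0.64 for fasted 11 over high-fat 9, -0.43 for fasted 14 over high-fat 7 and -0.41 for fasted 15 over high-fat 10. The same pairs of fasted 11 and fasted 13 were lowest, with a smaller spread. The mean was -0.49 ± 0.15 (SD, n = 5). Nsdhl was below Ebp in 4 of 5 of these pairs, with a mean difference of -0.33 ± 0.41 (SD).

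Neither gene passed the test between high-fat and control livers. Nsdhl had log2 ratios of 0.28 for high-fat 8 over control 4, 0.82 for high-fat 10 over control 3, -0.01 for high-fat 7 over control 5, -0.28 for high-fat 9 over control 2 and -0.07 for high-fat 6 over control 1. It was lower in 3 pairs and higher in 2, with a mean of 0.15 ± 0.42 (SD, n = 5). Ebp had log2 ratios of -0.36 for high-fat 8 over control 4, -0.10 for high-fat 10 over control 3, -0.19 for high-fat 7 over control 5, -0.21 for high-fat 9 over control 2 and 0.09 for high-fat 6 over control 1. It was lower in 4 of 5 pairs, by amounts close to the spread between pairs, with a mean of -0.16 ± 0.16 (SD, n = 5). Nsdhl minus Ebp averaged 0.30 ± 0.46 (SD) in these pairs, and Nsdhl was the lower of them in 2 of 5.

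**Figure D1:**
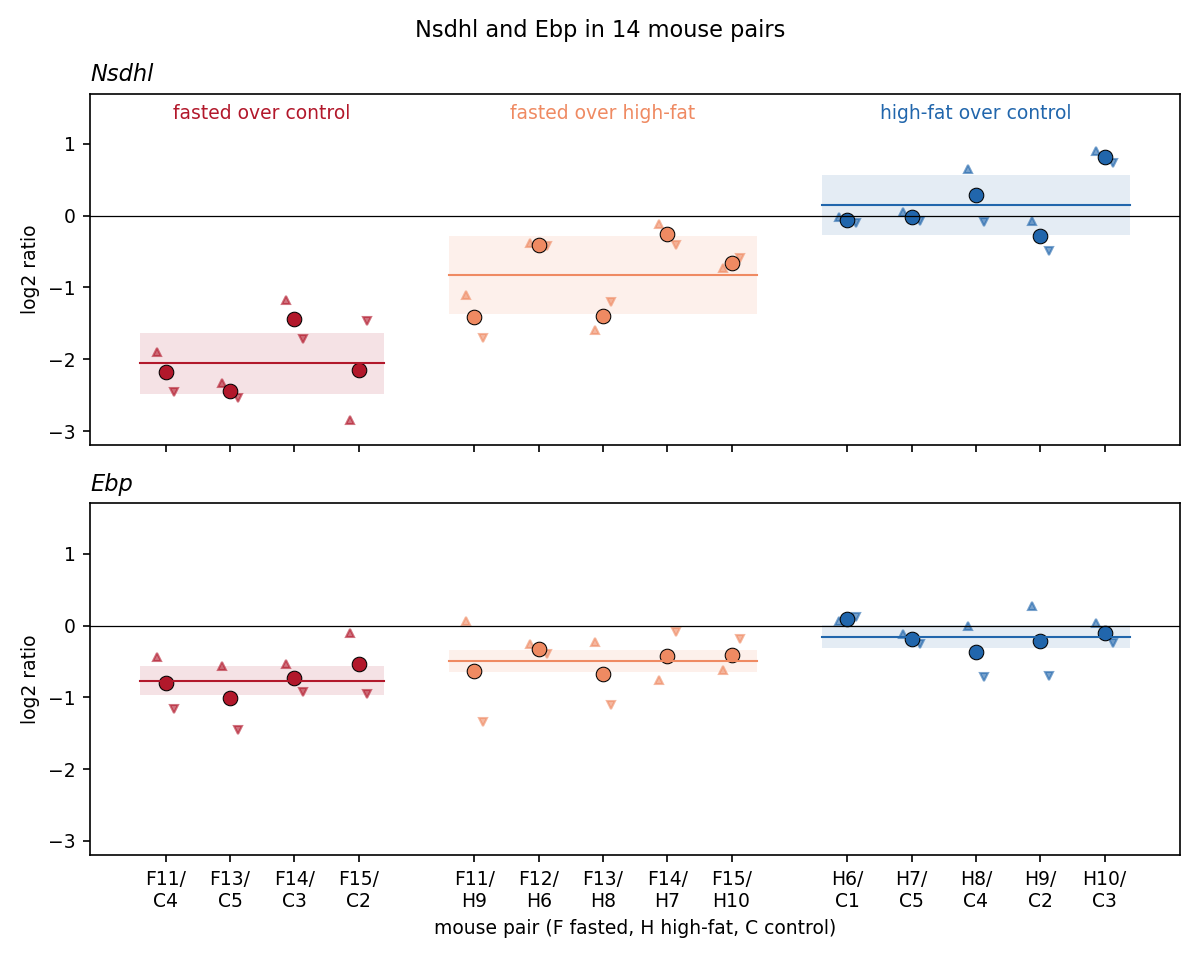
Log2 ratio of Nsdhl (top) and Ebp (bottom) in each of 14 mouse pairs, by comparison; circles are dye-swap means, triangles pointing up and down are the first and second array of the swap, and lines with bands are the mean ± SD over the pairs of a comparison. All 9 ratios of fasted livers lie below 0 for both genes, while the 5 ratios of high-fat over control livers lie on both sides of 0.

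A fit over all 14 pairs, with 3 groups and the covariance of pairs that share a mouse, placed fasted livers lowest for both genes. Nsdhl had a fitted log2 ratio of -1.51 ± 0.25 (SE) in fasted over control livers. That is a 2.85-fold lower level in fasted livers and the 10th lowest ratio of 4799 named genes. Against high-fat livers it was -1.24 ± 0.24 (SE), 2.37-fold lower in fasted livers and 11th from the lowest. Ebp had -0.71 ± 0.08 (SE) in fasted over control livers, a 1.64-fold lower level in fasted livers and the 58th lowest ratio. Against high-fat livers Ebp had -0.53 ± 0.08 (SE), a 1.44-fold lower level and the 95th lowest ratio. Of 11457 features tested, 4.59% were lower and 3.36% higher in fasted than control livers at an adjusted p under 0.05, and 2.77% were lower and 2.7% higher in fasted than high-fat livers. These shares stand beside the members as background only, since the genes were selected on these values. The SEs of the members take no account of that selection.

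In the tested comparison, the fitted log2 ratio of Nsdhl in high-fat over control livers was -0.27 ± 0.24 (SE), with a 95% interval of -0.77 to 0.23 and a limma adjusted p of 0.997. The fitted ratio of Ebp was -0.19 ± 0.08 (SE), with an interval of -0.35 to -0.02, an unadjusted limma p of 0.0266 and an adjusted p of 0.707. Among all features 0.323% were lower and 0.0262% higher in high-fat than control livers. Both fitted values also draw on the fasted over control pairs, the comparison that chose the genes. For Nsdhl the sign of the fitted value is opposite to that of the mean over the 5 direct pairs (0.15). For Ebp the direct pairs alone gave -0.16 ± 0.09 (SE), with a limma adjusted p of 0.956. The interval of Nsdhl holds both a decrease and a small increase, so a difference was not detectable with this number of mice, and equality was not shown.

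Of the 15 mice, 12 are joined in 1 closed loop of 12 pairs, which allows a relative level for each mouse, on a log2 scale around the mean of the 12. Nsdhl stood at -1.55 in fasted 13, -1.29 in fasted 11, -0.71 in fasted 14 and -0.43 in fasted 15. Its level was -0.01 in high-fat 7, 0.29 in high-fat 8, 0.56 in high-fat 9 and 0.67 in high-fat 10, and it was 0.30 in control 3, 0.45 in control 4, 0.45 in control 5 and 1.28 in control 2. All fasted mice lay below all others, and high-fat and control mice overlapped, with control 2 alone at the top. These levels are uncertain, because the 12 ratios of Nsdhl summed to 5.30 round the loop, or 0.44 per pair, where ratios without error give 0. Fasted 15 and high-fat 7 lay no further apart than that size per pair. The loop also holds the pairs of the comparison that chose the genes. The group means were -0.996 ± 0.515 in fasted, 0.38 ± 0.30 in high-fat and 0.62 ± 0.45 in control mice (SD, n = 4 each).

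Ebp stood at -0.74 in fasted 13, -0.49 in fasted 11, -0.36 in fasted 14 and -0.15 in fasted 15, the same order of fasted mice as for Nsdhl. Its level was -0.06 in high-fat 8, 0.07 in high-fat 7, 0.16 in high-fat 9 and 0.26 in high-fat 10, and it was 0.26 in control 5, 0.31 in control 4, 0.37 in control 3 and 0.37 in control 2. Among these 12 mice the 3 groups did not overlap for Ebp, although high-fat 10 and control 5 were level to the second decimal. The loop leaves out fasted 12, high-fat 6 and control 1. High-fat 6 over control 1 was the only pair of its comparison with a positive Ebp ratio (0.09). The group means were -0.43 ± 0.25 in fasted, 0.11 ± 0.14 in high-fat and 0.33 ± 0.05 in control mice (SD, n = 4 each). All fasted mice lay below all control mice for 2.93% of features and below all high-fat mice for 1.97%, and all high-fat mice lay below all control mice for 1.34%.

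**Figure D2:**
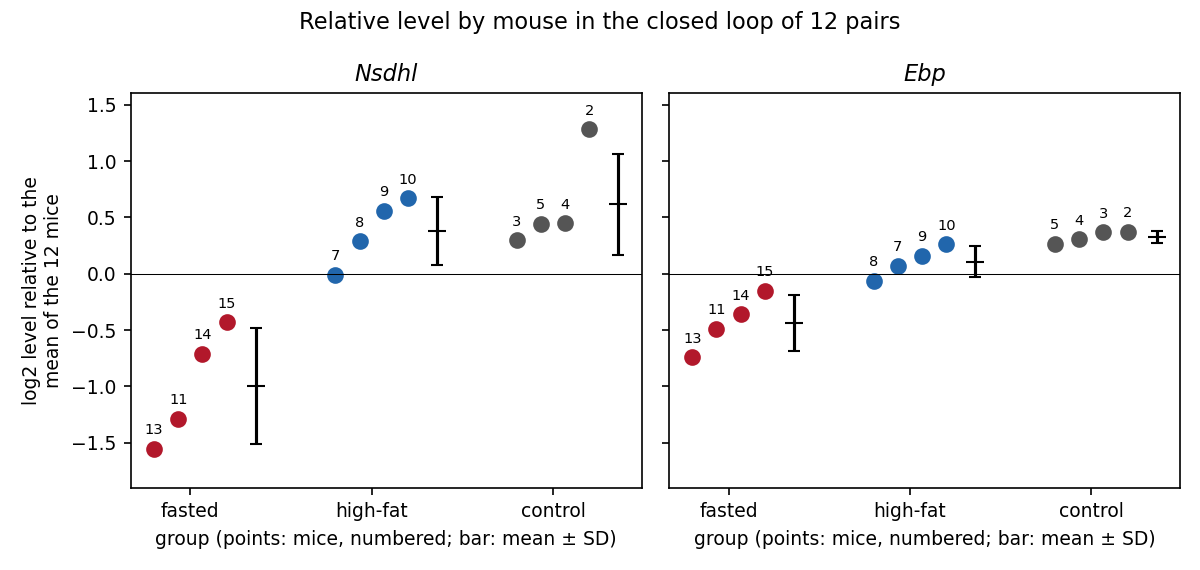
Relative log2 level of Nsdhl (left) and Ebp (right) in the 12 mice of the closed loop, around the mean of those mice; points are mice with their numbers and bars are group mean ± SD. Fasted mice lie lowest for both genes, from -1.55 to -0.43 for Nsdhl and from -0.74 to -0.15 for Ebp, and control 2 stands at 1.28 for Nsdhl. The ratios of Nsdhl sum to 5.30 round the loop instead of 0, so its levels are uncertain.

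The 2 spots of each gene moved together across the pairs. Between the spots, Pearson's r over the 14 dye-swap means, which share mice, was 0.948 for Nsdhl and 0.962 for Ebp, against a median of 0.503 over all genes. The spots of Ebp differed by at most 0.170 on the log2 scale, whereas those of Nsdhl differed by 1.06 in fasted 11 over high-fat 9 and had a median difference of 0.112. The arrays of a swap differed more for Ebp than for Nsdhl. In fasted over control livers Ebp averaged -0.41 ± 0.21 on the first arrays and -1.12 ± 0.24 on the second (SD, n = 4 each), while Nsdhl averaged -2.06 ± 0.70 and -2.05 ± 0.54. Both arrays gave the same direction in 12 of 14 swaps for Nsdhl and 11 of 14 for Ebp. The signal common to a dye, which the swap mean removes, averaged 0.07 ± 0.27 for Nsdhl and 0.22 ± 0.29 for Ebp (SD, 14 swaps).

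The size of the Nsdhl difference depended on which hybridisations were read. The direct pairs of fasted over control livers averaged -2.06, whereas adding the mean of fasted over high-fat livers to that of high-fat over control livers gave -0.68. This gap of -1.38 was the most negative among all 11457 features (0 lower), and it lay between -1.63 and -1.02 when each mouse was left out, arrays were centred or scaled to the same spread, or single arrays or spots were used. For Ebp the direct route gave -0.77 and the indirect route -0.65, a gap of -0.12. Among the 266 named genes lower in fasted than control livers, the medians were -0.54 for the direct and -0.38 for the indirect route. The median gap of these genes was -0.17, against 0.02 over all features. Ratios without error would sum to 0 round the closed loop. The size of that sum was 5.30 for Nsdhl, larger than in 99.97% of features, and 0.066 for Ebp, against a median of 0.568. The fitted value of Nsdhl thus averages over routes that disagree by more than its SE, and both routes gave a lower level in fasted livers. Direct ratios of fasted over control livers, the comparison that chose Nsdhl, enter both the gap and the loop sum. The ranks of Nsdhl among all features are therefore a description only. The cause of the gap was not tested.

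Other genes of the route shared the gap in part. Cyp51, the lanosterol demethylase that feeds Nsdhl's substrates, had -1.31 by the direct and -0.20 by the indirect route and a loop sum of 4.48, larger than in 99.93% of features. Fdft1 had -0.75 and -0.19, with a loop sum of 2.22. Sqle (-0.45 and -0.28) and Dhcr7 (-0.51 and -0.20) differed less, and Hsd17b7 ran the other way, with 0.16 direct and -0.20 indirect.

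**Figure D3:**
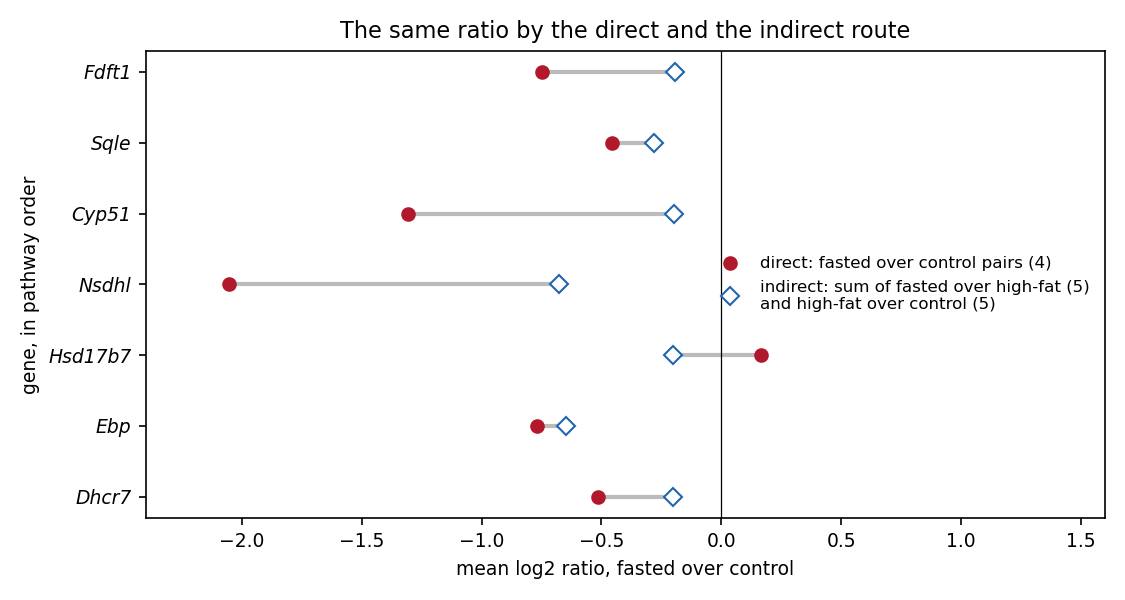
Mean log2 ratio of fasted over control livers for the 7 measured cholesterol synthesis genes, by the direct route (filled circles, 4 pairs) and the indirect route (open diamonds, sum of the means of 5 fasted over high-fat and 5 high-fat over control pairs). The direct route lies far below the indirect one for Nsdhl (-2.06 against -0.68) and close to it for Ebp (-0.77 against -0.65).

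Both pairs with control 3 held the highest Nsdhl ratio of their comparison. They were fasted 14 over control 3 (-1.45, against -2.44 to -2.15 in the other 3 pairs) and high-fat 10 over control 3 (0.82, against -0.28 to 0.28 in the other 4 pairs). Neither ratio was among the values flagged below as far from the rest. Cyp51, Fdft1 and Hsd17b7 were also highest in both of these pairs, while Ebp was highest in neither. Both conditions were met by 3.59% of all features and by 17.7% of the 266 genes lower in fasted than control livers.

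Of 21 listed genes of cholesterol synthesis 7 had a named spot, none of them in the mevalonate arm, and the other 14 are not analysed here. In fasted over control livers 5 of the 7 were lower and 0 higher, and without Nsdhl and Ebp 3 of 5 were lower, against 4.59% lower and 3.36% higher over all features. Relative to high-fat livers 4 of the 7 were lower and 0 higher, and without the chosen genes 2 of 5, against 2.77% lower and 2.7% higher over all features. In high-fat over control livers 0 of the 7 passed by limma, and 1, Ebp, was lower at an unadjusted p under 0.05. The medians of the 7 were -0.53, -0.52 and -0.13 in these comparisons, against 0.01, 0.00 and 0.01 over all features. The list was drawn up with results of these data known, so the counts are a description.

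Ahead of Nsdhl, Fdft1 (squalene synthase) was lower, at a log2 ratio of -0.53 ± 0.14 (SE) in fasted over control livers, limma adjusted p = 0.0239. The call was lost without fasted 11, 13 or 15 or control 2, 4 or 5, with adjusted p from 0.070 to 0.117. Sqle, the squalene epoxidase, had -0.38 ± 0.13 and did not pass (adjusted p = 0.0911). Cyp51 was lower, at -0.87 ± 0.22, adjusted p = 0.0216, a call lost without fasted 11 or 13 or control 2, 4 or 5 (adjusted p from 0.0773 to 0.140). Hsd17b7, the ketoreductase that follows Nsdhl in demethylation, had 0.01 ± 0.13 and did not pass (adjusted p = 0.971). Dhcr7, a reductase at the end of the route, was lower, at -0.39 ± 0.09, adjusted p = 0.0117, a call lost without fasted 11 or 13 or control 5 (adjusted p from 0.0573 to 0.0914). These 3 calls were also lost with direct pairs only, with arrays scaled to the same spread and with 0.9 of the variance set between mice. In fasted over high-fat livers Fdft1 (-0.52 ± 0.13, adjusted p = 0.0273) and Dhcr7 (-0.32 ± 0.09, adjusted p = 0.0388) passed, but with a mouse left out they kept the call in only 7 and 2 of 15 omissions, and the largest adjusted p was 0.107 for Fdft1 and 0.172 for Dhcr7. Cyp51 had -0.67 ± 0.21 there, adjusted p = 0.0826.

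**Figure D4:**
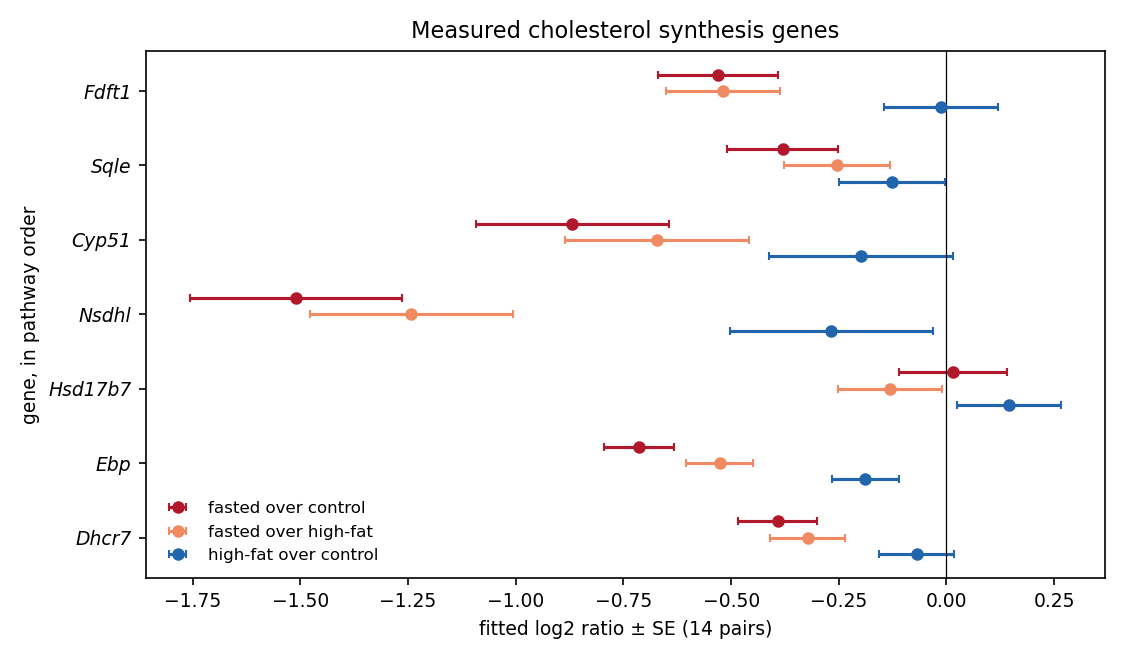
Fitted log2 ratio ± SE for the 7 measured cholesterol synthesis genes in pathway order, for fasted over control, fasted over high-fat and high-fat over control livers, from the fit over 14 pairs. Nsdhl lies at -1.51 and -1.24 in the fasted comparisons, Ebp at -0.71 and -0.53, and every high-fat over control value lies between -0.27 and 0.15.

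Around the synthesis route, 1 listed SREBP pathway gene was measured. Mbtps1, the protease that cleaves SREBPs, had -0.51 ± 0.21 in fasted over control livers (limma adjusted p = 0.177) and -0.76 ± 0.20 in fasted over high-fat livers (adjusted p = 0.0331, and above 0.05 in 10 of 15 omissions, up to 0.116). Of all features 4.59% were lower and 3.36% higher in fasted than control livers, and 2.77% and 2.7% in fasted than high-fat livers, beside the counts of the following lists. Of 10 measured transport and disposal genes 3 were higher and 0 lower in fasted than control livers: the bile acid enzymes Cyp7a1 (1.97 ± 0.35, adjusted p = 0.00161) and Cyp8b1 (1.08 ± 0.15, adjusted p = 0.000151), and the lysosomal cholesterol exporter Npc1 (0.37 ± 0.08, adjusted p = 0.00473). At an unadjusted limma p under 0.05, 4 of the 10 were higher and 2 lower. Cyp7b1, also a bile acid enzyme, had -1.02 ± 0.35 and did not pass (limma adjusted p = 0.0990). The Npc1 call was lost with direct pairs only, second arrays only and 0.9 of the variance between mice, and its ratio ran from 0.086 to 0.654 over the alternatives, with adjusted p up to 0.751. Cyp7a1 lost its call with direct pairs only and at the share of 0.9 (adjusted p up to 0.231), and Cyp8b1 at the share of 0.9 (adjusted p = 0.0709). In fasted over high-fat livers 3 were higher and 0 lower, among them Lcat, which esterifies cholesterol on lipoproteins (0.42 ± 0.08, adjusted p = 0.00249). There 4 were higher and 1 lower at an unadjusted limma p under 0.05, and Cyp7b1 had -0.90 ± 0.34 (limma adjusted p = 0.158). The Lcat call was lost with direct pairs only, second arrays only and the share at 0.9, with adjusted p up to 0.228. Of 8 measured fatty acid and triglyceride synthesis genes 5 were lower in fasted than control livers and 5 in fasted than high-fat livers. Among them in fasted over control livers were Elovl3 (-1.82 ± 0.20), Acss2 (-1.08 ± 0.13, not called at the share of 0.9, adjusted p = 0.1499), Scd1 (-1.06 ± 0.23, not called without fasted 11 or control 4, adjusted p up to 0.0686, nor at the share of 0.9, adjusted p = 0.794) and Mlxipl (-0.89 ± 0.10). In fasted over high-fat livers Scd1 kept its call in 9 of 15 omissions, with limma adjusted p up to 0.108. Its call was also lost there with direct pairs only, second arrays only and the share at 0.9, and that of Acss2 at the share of 0.9 (adjusted p = 0.452). Of 2 measured genes of the isoprenoid branches 0 passed by limma in either comparison (0 and 1 at an unadjusted p under 0.05). Ggps1, which makes geranylgeranyl diphosphate, had 0.23 ± 0.15 in fasted over control livers (adjusted p = 0.470). In high-fat over control livers 0 genes of these lists passed by limma, and 2 were higher and 2 lower at an unadjusted p under 0.05.

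Nsdhl belongs to the enzyme family of the hydroxysteroid dehydrogenases of the 3-beta type, of which Hsd3b1 alone among 8 listed relatives was measured. Hsd3b1, whose spots may also bind transcripts of its close family members, was at -1.91 ± 0.26 in fasted over control livers (limma adjusted p = 0.000151), -2.12 ± 0.25 in fasted over high-fat livers and 0.21 ± 0.25 in high-fat over control livers. With 0.9 of the variance between mice the call of Hsd3b1 was lost in fasted over control livers (adjusted p = 0.129) and in fasted over high-fat livers (adjusted p = 0.0933). Hsd3b1 also had its highest ratio in both pairs of control 3. None of 4 listed relatives of Ebp was measured.

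The named genes whose ratios ran closest to those of Nsdhl over the 14 pairs, which share mice, were Lifr, a cytokine receptor (Pearson's r = 0.948), Adh4, an alcohol dehydrogenase (0.938), Ube2l6, a conjugating enzyme (0.932), Cyp51 (0.926) and Hsd3b1 (0.921). For Ebp they were Dhrs3, a retinal reductase (0.954), Nipsnap1, a mitochondrial protein (0.941), Pipox, an amino acid oxidase (0.935), Inmt, a methyltransferase (0.928), and Arf5, a small GTPase (0.917), so the 5 closest genes of Nsdhl and those of Ebp had no gene in common. Nsdhl and Ebp had r = 0.862 with each other, which placed Ebp 33rd of 4798 genes for Nsdhl and Nsdhl 26th for Ebp. Nsdhl was close to Dhcr7 (0.909) and Fdft1 (0.887), further from Sqle (0.587), and had a value of -0.147 with Hsd17b7. Ebp had r = 0.673 with Dhcr7 and 0.637 with Fdft1, below the values of Nsdhl, and 0.637 with Sqle, above it. With Cyp51 Ebp had 0.722, and with Hsd17b7 -0.253. For Ebp, Cyp51 ranked 167th of the 4798 genes, Dhcr7 227th, Sqle 292nd and Fdft1 293rd.

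Among 199 named genes on the X chromosome, Nsdhl had the lowest fitted ratio in fasted over control livers and Ebp the third lowest. Both genes were chosen for low values in this comparison, so their ranks are a description only. In that comparison 11 of the 199, or 5.53%, were lower, both chosen genes included, and 6 were higher, with a median of 0.01. Over all features 4.59% were lower and 3.36% higher. The sex of the mice is not given. The Y-linked genes Eif2s3y and Uty had pair ratios from -0.25 to 0.15 and from -0.53 to 0.77, and 0 of 2 passed by limma in each comparison, also at an unadjusted p under 0.05.

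In whole liver, fewer cells of a type and less RNA per cell cannot be told apart. The marker counts below stand beside 4.59% of all features lower and 3.36% higher in fasted than control livers. In fasted than high-fat livers these shares were 2.77% and 2.7%. Beside the lower Nsdhl and Ebp in fasted over control livers, hepatocyte markers were 1 of 4 higher and 0 lower, with ratios from -0.12 to 0.37. Kupffer cell markers were 4 of 6 lower (median -0.44), endothelial markers 2 of 5 lower (median -0.10), and erythroid markers 2 of 2 lower (median -0.54). One neutrophil marker of 5, Camp, was lower (-2.14), as was the only measured adipocyte marker, Car3 (-2.75), which hepatocytes also express, and the only measured stellate cell marker, Dcn, was higher (0.29). Markers of cholangiocytes (2 measured), lymphocytes (3) and muscle (3) had 0 genes called by limma, also at an unadjusted p under 0.05. Beside the lower Nsdhl and Ebp in fasted over high-fat livers, 0 of 4 hepatocyte, 0 of 6 Kupffer cell, 0 of 5 endothelial and 0 of 2 erythroid markers passed by limma. At an unadjusted p under 0.05 there were 1 hepatocyte marker higher, and 3 Kupffer cell, 2 endothelial and 1 erythroid markers lower. Their medians were 0.04, -0.22, -0.07 and -0.21. Camp (-2.32) and Car3 (-2.01) were lower there too, and Dcn had 0.23 without passing. The part of these in the values of Nsdhl and Ebp was not tested.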

How the data were processed

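Liver RNA of 15 mice was isolated, amplified, coupled to Cy3 and Cy5 and hybridised to 28 arrays, per the labels' protocols. Per spot and array there is 1 deposited value, the authors' processed dye ratio, read as a log2 ratio although its base is not stated. The submitters' processing notes name limma without version or role. How background was corrected and arrays normalized is not stated in the sources used here. Intensities were not used, so how far spots stood above background is unknown, and the number of arrays limits the precision. Array medians ran from -0.23 to 0.35 and standard deviations from 0.29 to 1.26. Each ratio was read as the second-named over the first-named liver of its title, after the dyes listed for the first array of a swap. The dyes listed for second arrays, read literally, would leave the swap undone, so this direction is likely and not certain. The largest correlation between any 2 arrays as deposited was 0.608 in absolute size.

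Spots were named through the platform annotation (9758 named, 6658 unnamed). All 4799 symbols matched RefSeq on GRCm38.p6 by Entrez number. Swapped arrays were given a common direction and averaged, then the spots of a gene, which gave 11457 features with 0 empty cells. Generalised least squares over 14 pairs, with 18.0% of the variance between mice, was followed by limma's eBayes (limma 3.58.1, R 4.3.3; 12 residual and 4.51 prior degrees of freedom) and adjusted by Benjamini-Hochberg over all features at 0.05. The steps were tested on simulated data. The mice are separate animals. Nsdhl, Ebp and the lists were chosen with earlier results of these data known. Named are both genes, every measured cholesterol synthesis gene, up to 4 passing genes with the lowest p from each other list (or its gene with the lowest p), and the 5 closest genes of each member. Cyp7b1 is named besides, as a bile acid enzyme with ratios of the other sign. Alternatives were direct pairs only, centring, scaling, single arrays, single spots, other shares of variance and each mouse left out.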

Additional observations from a re-analysis of the deposited data

Results flagged for a closer look

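Of 27 groups of 4 or 5 values examined for Nsdhl, Ebp and the other measured cholesterol synthesis genes, 2 held a value far from the rest, and chance sets apart about 1 in 20 such groups. The relative log2 level of Nsdhl in control 2 was 1.28, while the next highest control mouse stood at 0.45. Both pairs of this mouse enter that level, and Nsdhl has one of the largest loop sums of all features. The log2 ratio of Sqle in fasted 13 over control 5 was -0.98, and the next lowest of the other 3 pairs was -0.34. Nsdhl and Ebp also had their lowest ratio of the comparison in that pair.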

How the results depend on the processing

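Nsdhl and Ebp had negative ratios in fasted over control and in fasted over high-fat livers under all 25 alternatives tried. In fasted over control livers Nsdhl was -2.06 from direct pairs only, and Ebp was -0.37 from the first and -1.07 from the second arrays of each swap. Single arrays keep the signal common to a dye, which the swap mean removes. With arrays scaled to the same spread Nsdhl was -1.14, its smallest difference among the alternatives, and Ebp was -0.57. With 1 mouse left out, Nsdhl ran from -1.65 to -1.32 and Ebp from -0.76 to -0.64 in fasted over control livers, Nsdhl from -1.41 to -1.12 and Ebp from -0.57 to -0.47 in fasted over high-fat livers, and Nsdhl from -0.46 to -0.17 and Ebp from -0.24 to -0.15 in high-fat over control livers. The last comparison changed sign for Nsdhl with direct pairs only (0.15, adjusted p = 0.956) and for Ebp with the first arrays (0.019, adjusted p = 0.929). Over all alternatives the limma adjusted p lay between 0.504 and 1 for Nsdhl and between 0.267 and 1 for Ebp. The gap between the routes turned for Ebp with arrays scaled to the same spread (0.12), in a set of alternatives chosen after seeing the data. The causes were not tested.

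In fasted over control livers 5 of 7 cholesterol synthesis genes passed, against 4.59% of all features lower and 3.36% higher. The counts include Nsdhl and Ebp, which were chosen on this comparison, and are a description. There were 1 with direct pairs only, 2 with scaled arrays, 1 with 0.9 of the variance between mice, 3 without the pair of fasted 15 and control 2 (an alternative chosen after seeing the data) and 2 to 5 with a mouse left out. In fasted over high-fat livers 4 passed, with 1 from direct pairs only, 2 from second arrays, 1 with the share at 0.9 and 2 to 5 with a mouse left out. Over all features 2.77% were lower and 2.7% higher there. In both fasted comparisons no gene other than Nsdhl or Ebp passed with direct pairs only or with the share at 0.9. In high-fat over control livers 0 passed throughout.

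Features passing in fasted over control livers were 911, and 114 with direct pairs only, 3771 with first arrays, 1405 with second arrays, 165 with the share at 0.9 and 515 to 1004 with a mouse left out. In counts from first or second arrays alone, here and below, a difference between groups and a dye effect cannot be told apart. In fasted over high-fat livers they were 626, then 156, 1160, 179 and 115, and 361 to 853 with a mouse left out. In high-fat over control livers they were 40, then 22, 696, 155 and 9, with 66 on scaled arrays, 62 without the pair of fasted 15 and control 2 and 14 to 75 with a mouse left out. The 40 were 3 higher and 37 lower, against 11 and 45 with centred and 24 and 42 with scaled arrays. Each ratio already compares the 2 mice of a hybridised pair, and the values from direct pairs only are the analysis within pairs. A fit with replicate number as a block could not be made, because a number in a title identifies 1 mouse and is not shared between groups.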
